A study of Mus musculus with 36 samples.

Results

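The 9 transcripts described here mark, against neighbouring tissue, the parts of the mouse embryo that hold notochord progenitors, first at the node and later in the tail bud. They were picked from measured values, as high in the rostral node (RN) and the node-streak border (NSB) at E8.5 and higher in the chordoneural hinge (CNH) than in the tail bud posterior to it (P-CNH), and they are 9 of 30869 gene symbols in the table. Bicc1, Cobl, Cthrc1 and 4930533K18Rik also stand in the study's own list of genes chosen on the same arrays. The comparisons that picked the 9 are therefore given as a description, and tests are given for comparisons that the choice did not use. Of the 8 tested comparisons, 6 contain regions whose values entered the choice, and the tests take no account of that, so that genes chosen as high in a region may for that reason be lower elsewhere.

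The study measured how expression changes in the progenitor regions from which the mouse body axis grows. Pieces of wild-type MF1 embryos were cut out by region, pooled, and measured on Illumina MouseWG-6 arrays. At E7.5 (headfold stage) the groups were the anterior region (A, 3 arrays), the posterior region (P, 2) and the proximal posterior region (PP, 2). At E8.5 (2 to 5 somites) they were RN (2), NSB (3), the caudal lateral epiblast beside the streak (CLE, 3), and the anterior (St1, 2) and posterior (St5, 2) ends of the primitive streak. The CNH was taken at E9.5 (2), E10.5 (2), E11.5 (3), E12.5 (2) and E13.5 (2), and the P-CNH at E9.5, E10.5 and E11.5 (2 each), which gives 16 regions and 36 arrays. Each array held RNA of 6 to 74 pieces, and between 10814 and 16256 probes were detected per array, with a median of 15054. The replicates are pools of pieces, so a p-value measures the spread between pools, and the number of arrays limits the precision. Arrays fell into 3 batches, and NSB was the only region with arrays both in batch 1 and in another batch, so that differences between batch 1 and the rest rest on that region.

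The notochord is a rod along the midline that signals to the neural tube, the somites and the gut. Its progenitors lie in the node at the front of the primitive streak, and their descendants continue to add notochord from the CNH, where the notochord and the floor of the neural tube meet in the tail bud. Cells of the node also carry cilia whose movement drives a leftward flow that sets the left and right sides of the body.

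Bicc1 and 4930533K18Rik are neighbours in the genome. Bicc1 encodes an RNA-binding protein that is needed for left-right asymmetry at the node, and 4930533K18Rik, annotated in RefSeq as a long non-coding RNA, has an annotated span on chromosome 10 that overlaps the span of Bicc1. Cobl (cordon-bleu) encodes a protein that starts actin filaments, and 6330505N24Rik is the formin gene Fhdc1 in RefSeq, whose product acts on actin and microtubules. Aplnr encodes the receptor of the peptides apelin and Elabela, and Adcy8 encodes a calcium-stimulated adenylyl cyclase, which makes cyclic AMP. Cthrc1 encodes a secreted protein with a collagen-like repeat that has been linked to planar cell polarity, and Cpn1 encodes the enzymatic subunit of carboxypeptidase N, which trims the ends of circulating peptides. 2310045A20Rik is Sel1l3 in RefSeq, and its function is little known. Adcy8 and Cthrc1 both lie on chromosome 15, with 264 genes between them.

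The table held 16 probes of the 9 symbols, and 13 of these were detected on at least 1 array. The 3 probes detected on no array were 2 of Cobl and 1 of Cthrc1. Each gene is described by its brightest probe, and the second probe of Bicc1 and of Cpn1 is given where the brightest or the second was called, the remaining ones only where called. The further Bicc1 probe ILMN_2939138 followed the brightest probe over the 16 regions at r = 0.97, and so did the Cpn1 probe ILMN_2796199 at r = 0.97. The remaining Bicc1 probe was detected on 10 arrays (r = 0.66) and the remaining Cpn1 probe on 6 (r = -0.13).

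RefSeq promoters (GRCm38.p6) were at hand for Cobl, Cpn1, 4930533K18Rik and 6330505N24Rik, with 6 windows of 300 bases among the 4 genes. They were searched on both strands for the forkhead motifs TGTTTAC and TATTTAC, the T-box motif AGGTGTGA and the Gli motif TGGGTGGTC, which are held by 3.65%, 3.04%, 1.28% and 0.253% of all 32851 promoters. A single window had a match, a forkhead motif 65 bases before the start of Cpn1, shown in capitals in the sequence from RefSeq. No test was run on this match.

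Cpn1: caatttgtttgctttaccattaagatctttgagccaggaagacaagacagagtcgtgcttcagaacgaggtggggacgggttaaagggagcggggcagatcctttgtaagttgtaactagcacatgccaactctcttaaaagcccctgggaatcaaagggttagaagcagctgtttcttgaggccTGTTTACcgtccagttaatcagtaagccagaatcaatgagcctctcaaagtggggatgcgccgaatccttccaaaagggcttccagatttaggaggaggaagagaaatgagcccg

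Node and notochord markers were used to see what the dissected regions held. Of 16 such genes, 14 were detected on some array, and Prickle2 and Gli1 on none. RN, NSB, E7.5 A and the CNH at E9.5, E11.5 and E12.5 each had all 14 detected on at least 1 array, and St1 and the CNH at E10.5 and E13.5 lacked Foxj1, so that detection alone did not separate the node regions from A or St1. CLE and the P-CNH at E9.5 and E10.5 lacked Noto, Foxa2, Foxa1, Shh and Lmx1a, and the P-CNH at E11.5 lacked Foxa2. At E7.5, PP lacked Noto, Shh, Nog and Lmx1a and P lacked Lmx1a, while St5 at E8.5 lacked Noto, Nog and Lmx1a. The summed normalised intensity of the node and notochord markers was 20802 and 24664 in RN, 19487, 23224 and 19792 in NSB, and 6486, 4613 and 8446 in CLE. It was 22216 and 23348 in the E9.5 CNH against 20746 and 14352 in the E9.5 P-CNH. T, which the P-CNH and the streak also express, was the brightest gene of the list in most regions, and some of the list, such as Timp3, the study also named from these arrays.

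The comparisons that picked the transcripts set RN and NSB against CLE, St1 and St5, and the CNH against the P-CNH on 3 days. They contrast tissue that builds notochord with neighbouring tissue that builds neural tube, somites and later mesoderm. The study had dissected endoderm and presomitic mesoderm away from CLE but not from RN or NSB, and RN and CLE share no batch. The part of either in the differences against CLE was not tested. All 9 transcripts had a positive log2 difference in all 9 of these comparisons. None of them set the CNH against St1 or E7.5 regions, and several of the 9 had CNH levels below levels there. The median log2 difference of the 9 was 2.94 for RN against CLE, 1.52 against St1 and 1.89 against St5, and for NSB it was 3.11, 0.97 and 1.96. For the CNH against the P-CNH it was 1.38 at E9.5, 1.90 at E10.5 and 1.08 at E11.5. With probes that were not detected in a group set at their lower bound, it was 2.79 for NSB against CLE and 1.65 at E10.5, and unchanged in the others. The smallest single difference was 0.19 (6330505N24Rik, NSB against St5) and the largest 4.68 (Cthrc1, RN against St5). The arrays of the 2 groups overlapped in 2 cases, 2310045A20Rik in NSB against CLE and 6330505N24Rik at E11.5.

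Bicc1 had the smallest residual SD of the 9 once the batch term was fitted, 0.15 on the log2 scale, although its replicates from different batches lay further apart, and it was detected on all 36 arrays. Its log2 values were 11.51 and 11.30 in RN and 11.63, 11.33 and 11.15 in NSB, against 8.52, 7.86 and 7.58 in CLE. St1 had 9.26 and 8.99 and St5 8.25 and 7.99, so that RN and NSB lay above every array of the 3 other E8.5 regions. In the tail bud, Bicc1 was 10.45 and 10.33 in the E10.5 CNH against 9.49 and 9.18 in the P-CNH, and the groups did not overlap. With the batch term its 16 levels ran from NSB down to CLE over 3.47, and 10 of the 15 steps between neighbours in that order were larger than the residual SD. 4930533K18Rik had 10.80 and 10.76 in RN and 10.75, 10.79 and 10.36 in NSB, against 5.60, 6.03 and 6.25 in CLE, where only replicate 3 was detected. RN was highest and CLE lowest, over a range of 4.42 with 7 of 15 steps above the residual SD of 0.28.

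Cobl and 6330505N24Rik, the genes of the actin skeleton, had different orders of regions. Cobl was brightest in the tail bud, at 8.89 and 8.54 in the E10.5 CNH and 9.84, 9.47 and 9.14 in the E11.5 CNH, and it was not detected on either P-CNH array at E9.5 or E10.5. RN had 7.88 and 7.99 and NSB 7.85, 8.16 and 8.89, all below the E11.5 CNH. Over the 14 regions with a detected array its levels with the batch term ranged over 3.85, down to CLE, and 3 of 13 steps exceeded the residual SD of 0.49. The batch term placed the E10.5 CNH highest and RN above the E9.5 CNH, whereas the measured E11.5 arrays lay above those of E10.5 and the E9.5 CNH arrays, at 8.06 and 8.13, above RN. 6330505N24Rik had 10.13 and 10.10 in RN, 9.81 and 10.40 in E7.5 P, and 9.41, 9.61 and 9.40 in NSB. The E10.5 P-CNH was lowest at 6.51 and 6.40, below every other array, over a range of 3.66 with 5 of 15 steps above the residual SD of 0.32.

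Aplnr and Adcy8 stand for signalling at the cell surface. Aplnr was detected on all arrays, at 10.93 and 11.03 in RN, 10.88, 10.79 and 10.95 in NSB, and 10.36 and 10.99 in E7.5 P. CLE had 7.43, 8.72 and 8.38 and the E11.5 P-CNH 8.55 and 7.74, which did not overlap the first 3 groups. Its range was 2.95 from RN to the E11.5 P-CNH, and 1 of 15 steps exceeded the residual SD of 0.36, so that neighbouring regions mostly could not be ordered. Adcy8 was highest in NSB, at 8.29, 8.17 and 8.27, and RN had 7.46 and 7.51. It was detected on no array of CLE or of the P-CNH on any of the 3 days, and on every array of the other 12 regions. The levels of Adcy8 in those 12 ranged over 2.33, and 1 of 11 steps exceeded the residual SD of 0.30, a step of 1.05 from E7.5 A to St5.

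For a group with no detected array of a probe, the level is only an upper limit. The fold is then given as at least the mean of the brighter group over, on each array of the other, the higher of the probe's own value and the lowest value among detected probes. By this measure Adcy8 was at least 2.96-fold higher in the CNH than in the P-CNH at E9.5, at least 5.00-fold at E10.5 and at least 3.59-fold at E11.5. Cobl was at least 4.46-fold higher in the CNH at E9.5 and at least 8.35-fold at E10.5.

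Cthrc1 and Cpn1, the secreted products, differed in how far the replicates spread. Cthrc1 was 10.12 and 10.36 in RN and 9.61, 10.20 and 9.51 in NSB, and it was at least 8.36-fold higher in the E9.5 CNH, at 9.04 and 8.97, than in the P-CNH, where it was not detected. Its E13.5 CNH arrays stood at 10.16 and at 6.24, the latter not detected, and its residual SD of 0.82 was the largest among the 9. Over the 14 regions with a detected array its levels ranged over 4.68, from RN to St5, and none of 13 steps between neighbours exceeded that SD. Cpn1 was 11.28 and 11.31 in the E10.5 CNH, its highest region, and 10.65 and 10.44 in RN. Its P-CNH arrays had 10.36 and 10.52 at E10.5 and 10.64 and 10.49 at E11.5, which overlapped the RN arrays. CLE was the lowest region of Cpn1, over a range of 3.07 with 4 of 15 steps above the residual SD of 0.32.

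2310045A20Rik was brightest in the oldest tissue, at 9.27 on both E13.5 CNH arrays, with 8.36 and 8.41 in RN and 7.53, 7.95 and 8.26 in NSB. CLE had 7.73, 7.87 and 7.54, inside the span of NSB, and the P-CNH had no detected array on any of the 3 days. Over the 13 other regions its range was 3.06, from the E13.5 CNH to the E9.5 CNH, with 3 of 12 steps above the residual SD of 0.50 and the largest, 0.64, from RN to NSB.

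**Figure D1:**
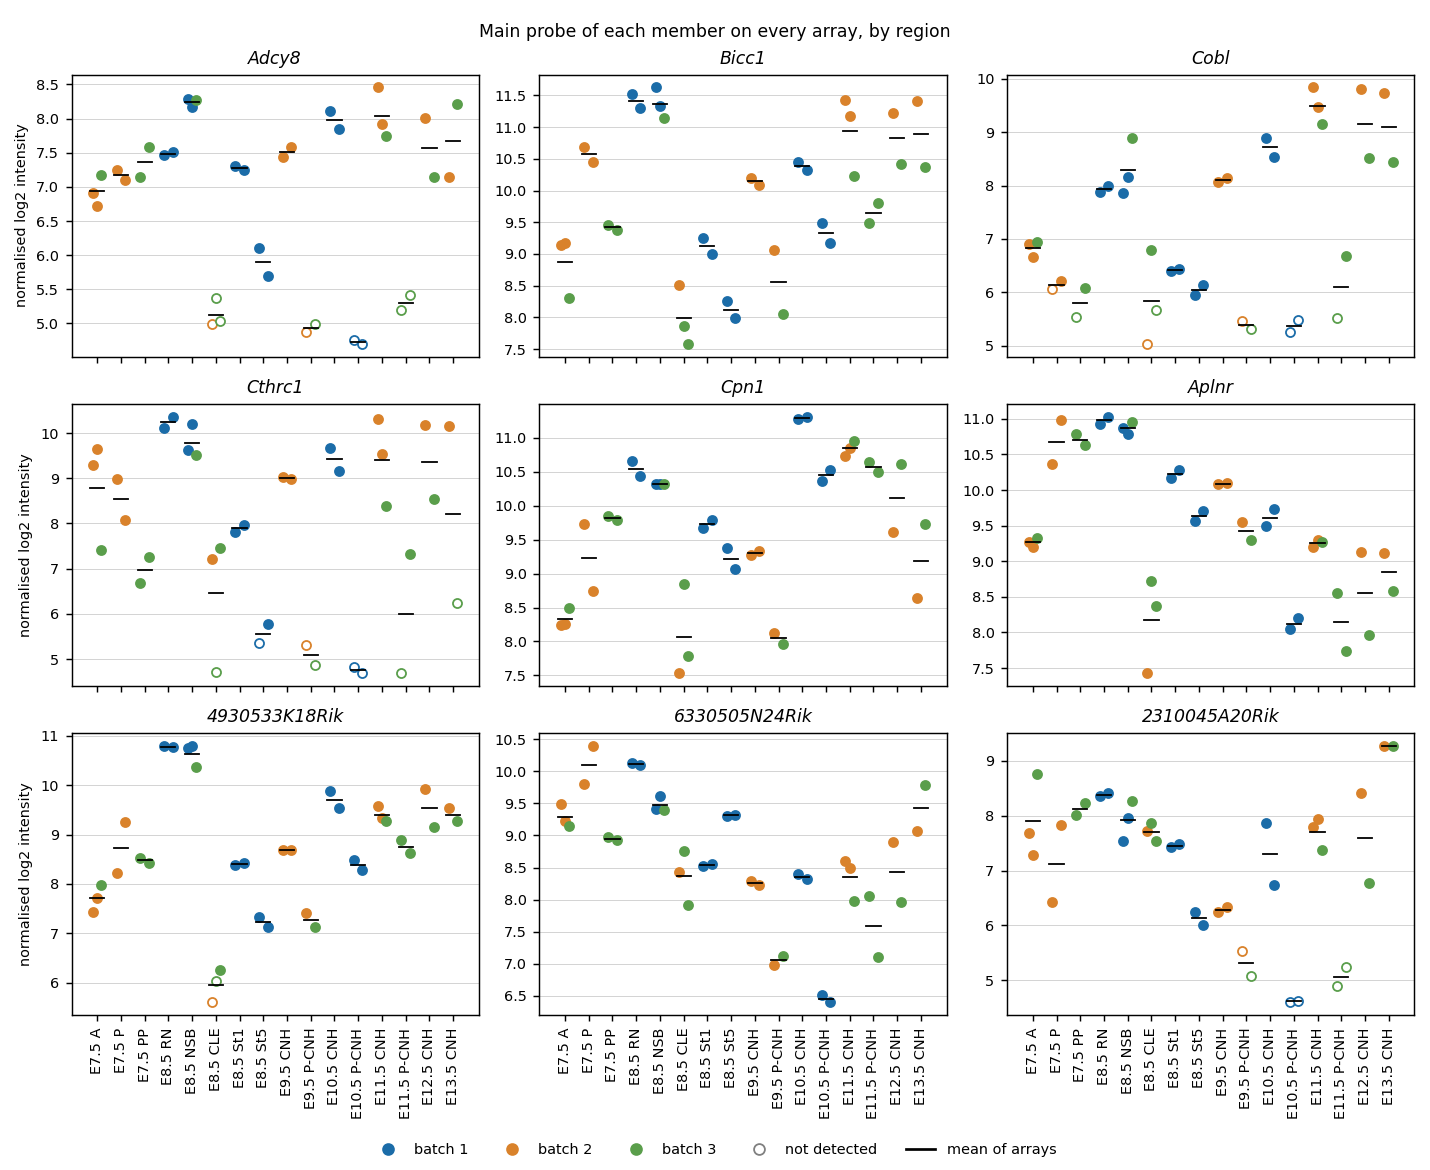
Normalised log2 intensity of the brightest probe of each of the 9 transcripts on each of 36 arrays, by region, 1 panel per gene, with colour for the batch, open points where the probe was not detected and a line at each group's mean. RN and NSB stand above CLE in the panels except that 2310045A20Rik overlaps between NSB and CLE, the P-CNH is high for Cpn1 at E10.5 and E11.5, and Adcy8 and 2310045A20Rik have open points on every P-CNH array.

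The 9 transcripts were picked for a common pattern, so their likeness to each other is in part built in. Over the 16 regions the r of the 36 pairs ran from -0.02 to 0.98 with a median of 0.61, and the highest was that of Bicc1 with 4930533K18Rik. The mean of their standardised profiles was 1.23 in RN, 1.13 in NSB and 0.73 in the E10.5 CNH, and lowest in the E9.5 P-CNH at -1.33 and CLE at -1.11. Among 10228 other genes that ranged over at least 1 on the log2 scale, the 10 most like this mean were Foxa2 (r = 0.886), scl0003799.1_2, LOC268288, Shh, Foxa1, Vtn, Moxd1, Mansc1, Efnb2 and Sox9 (r = 0.832). Of these 10, Foxa2, Shh, Foxa1 and Sox9 are in the list of node and notochord markers. Foxa2 and Foxa1 encode forkhead factors, and Shh encodes the signal that the notochord sends to the neural tube.

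The closest genes differed from one transcript to the next. Adcy8 was closest to Foxa1 (r = 0.959), Cobl to Lmx1a (0.965) and Wnk4, and Cthrc1 to Foxa2 (0.908) and Shh. Bicc1 was closest to 4930533K18Rik (0.979), followed by scl0003799.1_2 (0.979). 4930533K18Rik was closest to scl0003799.1_2 (0.989), followed by Bicc1. Cpn1 was closest to 0610012H03Rik (0.907) and Irak2, Aplnr to Gal (0.840) and LOC100047808, 6330505N24Rik to Krt18 (0.876) and Efnb1, and 2310045A20Rik to Epha7 (0.848) and Rab38. These are likenesses of 16 regional levels and carry no test.

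**Figure D2:**
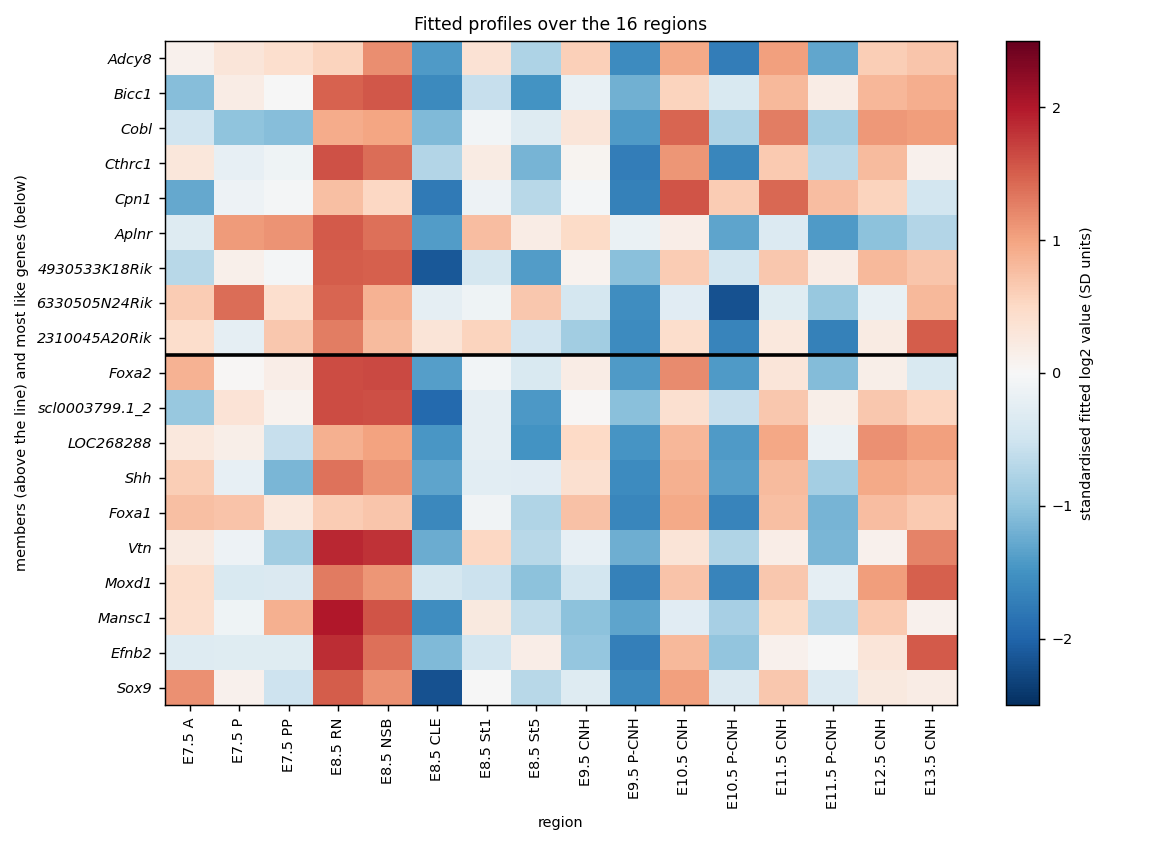
Heat map of standardised fitted log2 levels (colour, in SD units) of the 9 transcripts, above the line, and of the 10 genes most like their mean, below it, over the 16 regions. RN, NSB and the CNH from E10.5 are high and CLE and the P-CNH low in most profiles, with r of the 10 genes from 0.832 for Sox9 to 0.886 for Foxa2.

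RN and NSB are adjoining parts of the node region at E8.5. RN gives rise to notochord and floor plate, and NSB also holds cells that go on to make spinal cord and somites. The comparison asks whether the 9 transcripts mark one of them over the other. Adcy8 was 7.46 and 7.51 in RN against 8.29, 8.17 and 8.27 in NSB, with no overlap. For Bicc1 and 4930533K18Rik the arrays of both regions overlapped. In limma 0 of 9 were called, beside 0.136% of all genes, and at an unadjusted p under 0.05 there was 1 of the 9 (Adcy8, log2 difference -0.74, unadjusted p = 0.0252) and 285 of all genes. The median log2 difference of the 9 was 0.15, against 0.00 for all genes. 2310045A20Rik differed by 0.64 and 6330505N24Rik by 0.61, and the others by -0.07 to 0.33, with an adjusted p of 1 for all 9. Batch 1 alone could give no other differences, since NSB is the only region that ties batch 1 to the rest. With the batch term, NSB replicate 3 therefore has no weight in them. In a fit of batch 1 alone, as with array weights, 2 of 9 were called, Adcy8 and 6330505N24Rik, beside 2.09% and 2.65% of all genes.

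Few markers of other cell types were called between RN and NSB. Of the neural tube markers 1 of 4 tested, Olig3, was higher in RN (2.04, adjusted p = 0.000987), and of the presomitic mesoderm markers 1 of 4, Tbx6, was lower (-1.62, adjusted p = 0.0176). The presomitic markers summed to 1668 and 1030 in RN against 3826, 2953 and 2881 in NSB, with Tbx6 brightest and Lfng not detected. Their part in the values above was not tested. No gene was called in the 14 other lists, among them the 14 tested node and notochord markers.

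A and P divide the headfold embryo a day before the node regions were taken, a stage that played no part in the choice of the 9. The study describes the anterior region as neural-fated and found both neural and emergent notochord markers enriched there. The posterior region held the rest of the embryo with its streak. The comparison asks whether the transcripts were already on the posterior side. Bicc1 was 9.13, 9.18 and 8.30 in A against 10.69 and 10.45 in P, Aplnr 9.27, 9.21 and 9.33 against 10.36 and 10.99, and 4930533K18Rik 7.43, 7.72 and 7.97 against 8.23 and 9.25. The arrays of A lay below those of P for all 3 genes. In A against P, 3 of 9 were called, all lower, beside 2.87% of all genes. Bicc1 fell by 1.39 (SE 0.18, 2.63-fold, adjusted p = 2.55e-05), Aplnr by 1.39 (SE 0.33, 2.62-fold, adjusted p = 0.02) and 4930533K18Rik by 1.01 (SE 0.27, 2.02-fold, adjusted p = 0.0445). Within batch 2 the differences were -1.42, -1.44 and -1.16, and a further probe of Bicc1 was also called (-1.96, adjusted p = 0.000425). Cpn1 differed by -1.07 and did not pass (adjusted p = 0.0596), though it was called lower in 4 of 12 other settings and in 5 of the 36 fits that left out 1 array (-1.56 to -0.58 over the 36). Cobl, Cthrc1 and 2310045A20Rik were on the A side, by 0.78, 0.84 and 0.84, and did not pass either. The median of the 9 was -0.76, against 0.06 for all genes. Without A replicate 1 or A replicate 2, 1 of 9 was called, Bicc1. The call of Aplnr was also lost without P replicate 2 (-1.07), and that of 4930533K18Rik in 23 of the 36 fits that left out 1 array (-1.52 to -0.50), in batch 2 alone and with no detection filter.

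The node markers did not move as a block between A and P. Of 14 tested, 3 were higher in A, Shh (2.14, adjusted p = 0.0192) and Lmx1a (at least 1.24-fold, adjusted p = 0.0142) among them, and 1 was lower, T (-2.18, adjusted p = 0.00951). Their sums were 13155, 14700 and 8388 in A and 15217 and 14406 in P. The presomitic mesoderm markers were lower in A for 2 of 4 tested, Tbx6 (at least 25.9-fold, adjusted p = 1.01e-11) and Dll1 (-3.48, adjusted p = 0.00242). They summed to 232, 260 and 200 in A against 3146 and 2764 in P, where Tbx6 was brightest and Dll3 and Lfng were not detected. Of the planar cell polarity genes, 3 of 12 were lower in A, Wnt5a (-2.21), Ror2 (-1.44) and Prickle1 (-1.07). In the floor plate list, which also covers the ventral neural tube, 1 of 3 was higher (Foxd4, 2.76, adjusted p = 1.56e-06). The study counts Foxd4 among neural and emergent notochord markers. Lower were 1 of 4 neural tube genes (Hes3), 1 of 7 visceral endoderm genes (Apob) and 1 of 3 somite genes (Meox1). The part of these cell types in the difference was not tested, and the 9 other lists had no call.

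PP is the hindmost part of the streak at E7.5, and P the posterior region. The comparison asks whether the transcripts differ along the posterior side. The groups share no batch, so that each difference rests on the batch term and not on arrays run side by side. Bicc1 had 9.46 and 9.38 in PP against 10.69 and 10.45 in P, 6330505N24Rik 8.97 and 8.93 against 9.81 and 10.40, and 2310045A20Rik 8.02 and 8.24 against 6.42 and 7.82. The arrays of the groups did not overlap for these 3 genes, though with the batch term Bicc1 differed by -0.23 at its brightest probe and by -1.15 at its second (unadjusted p = 0.0071, adjusted p = 0.232). By that fit limma called 0 of 9, beside 0.827% of all genes. At an unadjusted p under 0.05 were 2 of 9, 6330505N24Rik (-0.97, unadjusted p = 0.0148) and 2310045A20Rik (1.16, unadjusted p = 0.0433), and 1609 of all genes, and the adjusted p were 0.309 and 0.457. The 9 had a median of 0.08, against 0.02 for all genes. Of the visceral endoderm genes 2 of 7 were higher in PP, Rbp4 (at least 12.4-fold, adjusted p = 0.00163) and Afp (at least 4.62-fold, adjusted p = 0.0108), and the list summed to 37659 and 17969 in PP, with Ttr brightest, and 10763 and 6066 in P. Foxd4 of the floor plate list (-4.58, adjusted p = 1.53e-07) and Tcf15 and Meox1 of the 3 tested somite genes (-3.63 and -2.21) were lower. The other 13 lists had no call, and the part of these cells in the values was not tested.

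The E10.5 CNH follows from the NSB as the streak gives way to the tail bud. Both were picked as high, so the values compared here entered the choice, which the test does not take into account. The difference between the 2 regions was not used. The comparison asks how far the transcripts keep their level over those days. Aplnr was 9.49 and 9.73 in the E10.5 CNH against 10.88, 10.79 and 10.95 in NSB, and 6330505N24Rik 8.39 and 8.32 against 9.41, 9.61 and 9.40. Bicc1 was 10.45 and 10.33 against 11.63, 11.33 and 11.15, and 4930533K18Rik 9.88 and 9.54 against 10.75, 10.79 and 10.36. No CNH array reached the lowest NSB array for these 4. Those 4 of 9 were called lower, beside 8.09% of all genes. Bicc1 fell by 1.09 (SE 0.19, 2.13-fold, adjusted p = 0.000446), Aplnr by 1.22 (2.33-fold, adjusted p = 0.0364), 4930533K18Rik by 1.06 (2.09-fold, adjusted p = 0.0248) and 6330505N24Rik by 1.15 (2.22-fold, adjusted p = 0.0294). The second probe of Bicc1 was also called (-1.23, adjusted p = 0.0252). Cpn1 was 11.28 and 11.31 against 10.32 on all 3 NSB arrays, and its difference of 0.97 did not pass (adjusted p = 0.0775), though it was called higher in 7 of 12 other settings. Cobl differed by 0.71, Cthrc1 by -0.49, 2310045A20Rik by -0.44 and Adcy8 by -0.25, and none of these passed, though Cobl was called higher with array weights and in batch 1 alone (6 of 9 in each, beside 21.2% and 20.9% of all genes). The median of the 9 was -0.49, against -0.01 for all genes. Batch 1 alone could give no other differences, since only NSB ties batch 1 to the rest. With the batch term, NSB replicate 3 therefore has no weight in them. Leaving out either E10.5 CNH array, or NSB replicate 1 or 2, left 1 of 9 called, Bicc1 (-1.24 to -0.94), whose call was in turn lost without the batch term (-0.98). The call of Aplnr was also lost with no detection filter, at the same difference.

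Markers of other tissues also differed between NSB and the E10.5 CNH. Gut endoderm markers were lower for 6 of 8 tested, among them Trh (-4.69, adjusted p = 3.08e-11), Cdh1 (-3.50, adjusted p = 3.37e-05) and Krt8 (-2.79, adjusted p = 0.000131). Their sums were 3581 and 3335 in the E10.5 CNH, with Cldn6 brightest, and 23276, 22715 and 24766 in NSB, with Trh brightest. Trh was also the brightest of this list in CLE, where Sox17 was not detected and the study had dissected endoderm away. The paper counts Cdh1 among markers of the early primitive streak, so Trh and Cdh1 do not mark gut endoderm alone. Blood genes were higher for 3 of 6, with Hbb-y at least 191-fold (adjusted p = 6.87e-12) and Hba-x by 5.63. They summed to 29348 and 31107 in the CNH, where Hbb-y was brightest, and to 3939, 1744 and 1181 in NSB, where Hbb-y and Alas2 were not detected. Endothelial genes were higher for 2 of 8, Emcn (at least 6.84-fold) and Cdh5 (at least 2.19-fold), with sums of 1527 and 2088 against 713, 711 and 793, Esam brightest, and Kdr and Tie1 detected on no array. Lower were 2 of 7 visceral endoderm genes (Ttr and Amn) and 2 of 4 neural tube genes (Hes3 and Olig3). In the floor plate and ventral neural tube list 2 of 3 were lower (Foxd4, at least 37.2-fold, and Nkx6-1), of which Foxd4 does not mark floor plate alone. Higher were 1 of 14 node markers (Timp3, 1.67, adjusted p = 0.00021) and 1 of 3 somite genes (Tcf15, 1.94).

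Among genes linked to the roles of the 9, Dand5, an inhibitor of Nodal at the node, was at least 5.51-fold lower in the E10.5 CNH (adjusted p = 2.6e-11), as 1 of 8 Bicc1 partners and node cilium genes. Wnt5a (2.45, adjusted p = 0.0017) and Celsr1 (1.40, adjusted p = 0.0302) were higher and Ror2 (-1.36, adjusted p = 0.00398) lower among 12 planar cell polarity genes, and Cpxm1 (1.21, adjusted p = 0.00995) was higher among 4 carboxypeptidases. The surface ectoderm, presomitic mesoderm, adenylyl cyclase, cordon-bleu and apelin lists had no call. Whether the fall of the 4 transcripts follows from fewer cells that express them or from less RNA per cell cannot be told from pooled pieces, and the part of the other tissues was not tested.

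From E9.5 to E11.5 the tail lengthens while the CNH keeps feeding its midline tissues. The comparison asks whether the 9 transcripts hold their level over that time. Bicc1 had 10.19 and 10.09 at E9.5 and 11.42, 11.17 and 10.23 at E11.5, and Cpn1 9.28 and 9.33 at E9.5 and 10.73, 10.85 and 10.94 at E11.5. Every E11.5 array of both genes lay above the E9.5 arrays, with Bicc1 replicate 3, of batch 3, only just so. In this comparison 2 of 9 were called, both higher, beside 5.64% of all genes. Bicc1 rose by 1.11 (SE 0.18, 2.15-fold, adjusted p = 0.000481) and Cpn1 by 1.37 (SE 0.30, 2.58-fold, adjusted p = 0.00814), and within batch 2 the differences were 1.15 and 1.48. Within that batch the E9.5 CNH arrays were on one BeadChip and the E11.5 and E13.5 CNH arrays on another, so that age and BeadChip cannot be told apart there. The second probes of Bicc1 (0.87, adjusted p = 0.122) and Cpn1 (0.94, adjusted p = 0.161) pointed the same way and did not pass. Cobl was 8.06 and 8.13 at E9.5 and 9.84, 9.47 and 9.14 at E11.5, without overlap. Its difference of 1.46 did not pass (adjusted p = 0.0543), though it was called higher in 7 of 12 other settings. 2310045A20Rik also differed by 1.46 and did not pass (adjusted p = 0.0595), and Aplnr was the only transcript of the 9 with a negative difference (-0.82, adjusted p = 0.173). The 9 had a median of 0.99, against -0.01 for all genes. Without E9.5 CNH replicate 1 or 2, 1 of 9 was called (Bicc1), without E7.5 A replicate 3, 4 of 9 (Cobl and 2310045A20Rik added), and when BeadChips replaced batches in the fit, as a random term, 0 of 9 beside 1.11% of all genes. Without a batch term the call of Bicc1 was lost (0.80), and array weights gave 6 of 9 beside 22.8% of all genes.

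Node and notochord markers were higher at E11.5 for 3 of 14 tested, Sema5a (1.42), Sox9 (1.22) and Timp3 (0.98), and summed to 35587, 32919 and 25758 against 22216 and 23348 at E9.5. Surface ectoderm markers were higher for 2 of 5, Cldn4 (2.26, adjusted p = 0.0257) and Trp63 (at least 1.15-fold, adjusted p = 0.00432). They summed to 824, 455 and 1006 against 296 and 320, with Cldn4 brightest at E11.5 and Krt14, Krt15 and Trp63 not detected at E9.5. Of the gut endoderm markers Cldn6 was higher (1.60) and Trh lower (at least 2.82-fold), and 1 gene each was higher in the floor plate (Nkx6-2), neural tube (Olig3, at least 2.65-fold, adjusted p = 7.35e-05) and somite (Meox1, 2.30) lists. Nek8 (0.99, adjusted p = 0.0236) and Invs (at least 1.79-fold, adjusted p = 0.0433) were higher among 8 Bicc1 partners and node cilium genes, Prickle1 (0.82) among planar cell polarity genes and Cpm (1.20) among carboxypeptidases. Fmn2, of the cordon-bleu list, was called lower but was detected in neither group. No other list had a call, and the part of surface ectoderm and other tissue in the rise of Bicc1 and Cpn1 was not tested.

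By E13.5 tail growth is coming to its end, and no P-CNH was taken at that age. The E13.5 CNH was not among the regions that picked the 9. The study's own list, which holds Bicc1, Cobl, Cthrc1 and 4930533K18Rik, did use the CNH of every age, E13.5 among them. The comparison with E9.5 asks what is left of the transcripts when elongation stops. 2310045A20Rik was 9.27 on both E13.5 arrays against 6.24 and 6.34 at E9.5, just above the lowest detected values of those arrays (6.21 and 6.20), 6330505N24Rik 9.08 and 9.78 against 8.29 and 8.23, and Bicc1 11.41 and 10.38 against 10.19 and 10.09. Aplnr was 9.12 and 8.59 against 10.09 on both E9.5 arrays, and for all 4 genes the ages did not overlap. Of the 9, 3 were called higher and 1 lower, beside 24.3% of all genes, a share that was 13.6% with cyclic loess normalisation. E13.5 CNH replicate 2 had the fewest detected probes of the 36 arrays, 10814. 2310045A20Rik rose by 3.06 (SE 0.49, 8.34-fold, adjusted p = 0.000126), Bicc1 by 1.21 (SE 0.20, 2.31-fold, adjusted p = 0.00016) and 6330505N24Rik by 1.26 (SE 0.34, 2.39-fold, adjusted p = 0.0101). Aplnr fell by 1.21 (SE 0.37, 2.32-fold, adjusted p = 0.0214), a call that a replicate block beside region and batch ended. The difference of 2310045A20Rik ran from 2.15, with an offset of 100, to 3.24 over the other settings. Within batch 2 the 4 differences were 2.98, 1.26, 0.81 and -0.97, though a fit of batch 2 alone did not call 6330505N24Rik or Aplnr, and the second probe of Bicc1 was also called (1.04, adjusted p = 0.0363). Without E9.5 CNH replicate 1 or 2, or E13.5 CNH replicate 2, the calls of Aplnr (-1.22, -1.21 and -0.97) and 6330505N24Rik (1.29, 1.22 and 0.81) were lost, which left 2, 2 and, with Cobl gained, 3 of 9. With BeadChips as a random term, or with array weights, 1 of 9 was called, 2310045A20Rik, beside 8.49% and 7.66% of all genes, and without a batch term the call of Bicc1 was lost (0.75).

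The other transcripts did not pass between E9.5 and E13.5. Cobl differed by 1.11 (adjusted p = 0.102), 4930533K18Rik by 0.75 (adjusted p = 0.0773), both of them called with the background left in or an offset of 100, which gave 6 of 9, Adcy8 by 0.13 and Cthrc1 by 0.07. The value of Cthrc1 joins replicate 1 at 10.16 with replicate 2, where it was not detected. Within batch 2 Cthrc1 differed by 1.15 and Adcy8 by -0.37. Cpn1 differed by -0.37 at its brightest probe and did not pass (adjusted p = 0.434), while its second probe was called lower (-1.16, adjusted p = 0.047). The third probe of Cpn1 was also called lower but was detected in neither group. The median of the 9 was 0.75, against -0.05 for all genes, and cyclic loess in place of quantile normalisation moved the median of all genes to 0.14.

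Markers of several neighbouring tissues were higher in the E13.5 CNH. Endothelial markers were higher for 8 of 8 tested, such as Cldn5 (at least 9.87-fold, adjusted p = 0.000111), Emcn (at least 6.16-fold, adjusted p = 3.25e-05) and Esam (2.66, adjusted p = 0.00199). They summed to 2605 and 2718 at E13.5, with Cldn5 brightest, against 415 and 460 at E9.5, and Kdr and Tie1 were detected on no array. Surface ectoderm markers were higher for 3 of 5, Krt14 (at least 26.5-fold, adjusted p = 2.03e-06), Trp63 (at least 8.03-fold, adjusted p = 9.17e-08) and Cldn4 (4.03, adjusted p = 0.000115), with sums of 4211 and 4261 against 296 and 320, Krt14 brightest and Krt15 not detected. Gut endoderm markers were higher for 4 of 8, among them Cdh1 (at least 7.34-fold, adjusted p = 0.000431) and Cldn6 (2.78), and lower for Trh, and they summed to 6647 and 8185 against 1696 and 1619. Blood had 1 of 6 higher (Hbb-b1, 3.44) and 1 lower (Hbb-bh1, -3.62). The part of these tissues in the rise of 2310045A20Rik, Bicc1 and 6330505N24Rik was not tested.

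Of the node and notochord markers at E13.5, 4 of 14 were higher, such as Sema5a (2.75, adjusted p = 5.46e-05) and Chrd (1.87, adjusted p = 0.0257), and 1 was lower, Noto (-1.83, adjusted p = 0.0271), which was detected on 1 of the 2 E13.5 arrays. Within batch 2, and so without E13.5 CNH replicate 2, Sema5a differed by 2.29, Chrd by 0.78 and Noto by -0.82. Their sums were 34020 and 18342. Higher were also 1 of 3 genes of the floor plate and ventral neural tube list (Nkx6-2), 1 of 3 somite genes (Meox1, 3.31) and, of 4 neural tube genes, Olig3, with Sox3 lower. Adcy4 was at least 3.83-fold higher (adjusted p = 0.00087) as 1 of 7 adenylyl cyclases, Cpm by 4.08 (adjusted p = 3.51e-08) as 1 of 4 carboxypeptidases, and Fzd6 (0.94) and Prickle1 (0.69) as 2 of 12 planar cell polarity genes. Invs (at least 3.18-fold) and Nek8 (1.05) were higher among the Bicc1 partners. Of the cordon-bleu list, Cobll1 was higher (at least 2.06-fold), Spire2 lower (at least 1.28-fold), and Fmn2 was called lower without being detected in either group. The visceral endoderm, presomitic mesoderm and apelin lists had no call.

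**Figure D3:**
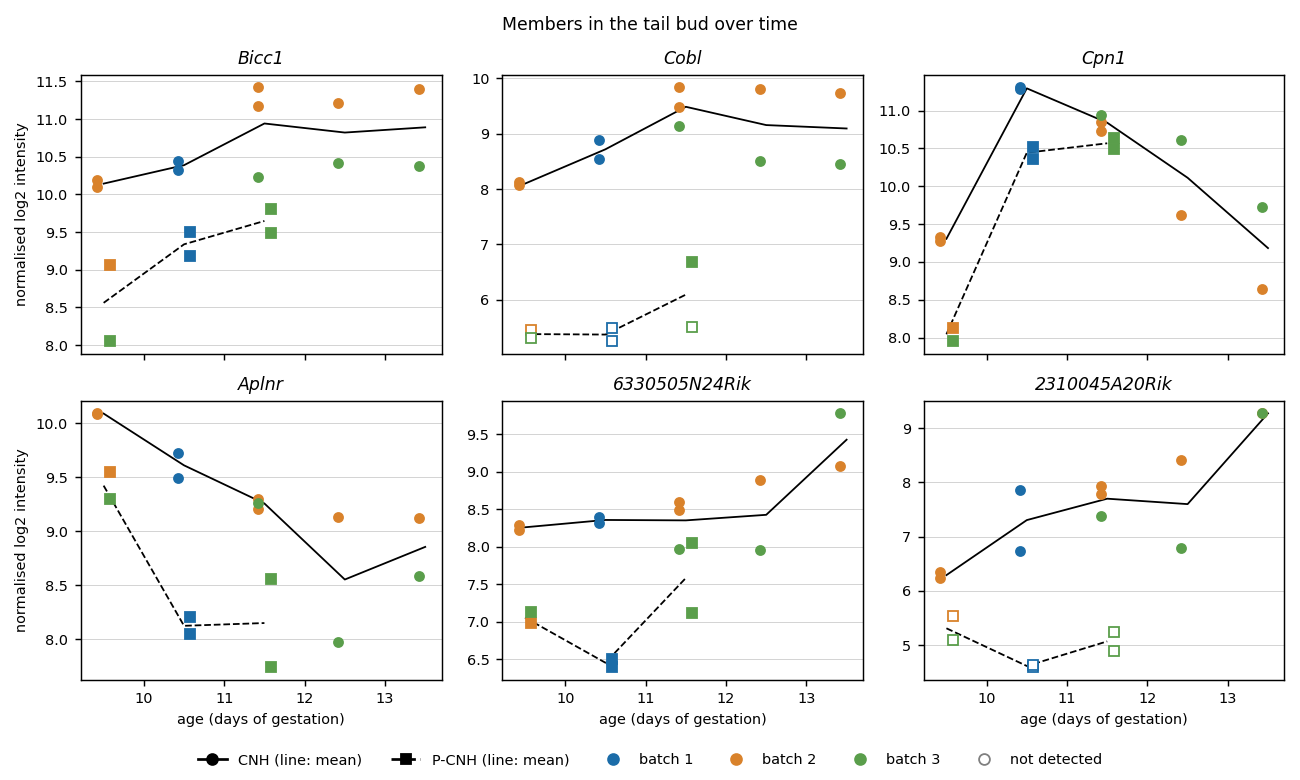
Normalised log2 intensity of 6 of the transcripts against age in days in the CNH (circles, solid line through the means) and the P-CNH (squares, dashed line), 1 point per array. 2310045A20Rik reaches 9.27 on both E13.5 arrays from 6.24 and 6.34 at E9.5, and Aplnr goes from 10.09 on both arrays to 9.12 and 8.59.

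St1 and St5 are the front and back ends of the E8.5 streak. Both served as low regions in the choice of the 9, so their values entered it, which the test does not take into account. The difference between the 2 ends was not used. The front end gives rise to somite mesoderm and the back end to lateral and ventral mesoderm, and the comparison asks whether the transcripts fall off with distance from the node. Adcy8 was 7.31 and 7.24 in St1 against 6.11 and 5.69 in St5, Bicc1 9.26 and 8.99 against 8.25 and 7.99, and 4930533K18Rik 8.38 and 8.43 against 7.33 and 7.13. The ends, with 2 arrays each, did not overlap for these 3 genes. In St5 against St1, 3 of 9 were called, all lower, beside 3.64% of all genes. Adcy8 fell by 1.38 (SE 0.31, 2.60-fold, adjusted p = 0.0094), Bicc1 by 1.00 (SE 0.19, 2.00-fold, adjusted p = 0.00224) and 4930533K18Rik by 1.18 (SE 0.29, 2.26-fold, adjusted p = 0.0214), and batch 1, which holds all 4 arrays, gave the same differences. The second probe of Bicc1 differed by -1.20 and did not pass (adjusted p = 0.0572). Cthrc1 differed by -2.33 with an SE of 0.76 and did not pass (adjusted p = 0.126), nor did 2310045A20Rik at -1.32 (adjusted p = 0.205). 6330505N24Rik was the only one of the 9 higher in St5, by 0.77 (adjusted p = 0.371). The 9 had a median of -1.003, against -0.02 for all genes. Without St1 replicate 1 or St5 replicate 2, 0 of 9 were called, without St1 replicate 2, 1 of 9 (Bicc1), and without St5 replicate 1 the call of 4930533K18Rik was lost (-1.27). A fit of batch 1 alone called 7 of 9, beside 13.2% of all genes, and array weights 7 of 9 beside 13.6%, while the call of Bicc1 was lost without a batch term at the same difference, and that of Adcy8 with an offset of 100 (-0.73).

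The back of the streak also differed in its other cells. Endothelial markers were higher in St5 for 5 of 8, among them Sox18 (at least 9.40-fold, adjusted p = 2.33e-06), Tek (at least 4.59-fold, adjusted p = 0.000114) and Cdh5 (at least 3.60-fold, adjusted p = 0.000304). They summed to 2439 and 2789 in St5 against 634 and 570 in St1, with Esam brightest in both and Kdr and Tie1 not detected. Presomitic mesoderm markers were lower for 2 of 4, Dll3 (-2.15) and Tbx6 (-1.11, adjusted p = 0.0279), with sums of 2105 and 2205 against 4785 and 4735. Trh of the gut endoderm list was lower (-2.10, adjusted p = 3.02e-05), though that list summed to 17022 and 14998 in St5 and 16281 and 15066 in St1. Lower also were Hes3 (at least 9.12-fold, adjusted p = 0.00178), Foxd4 (at least 1.66-fold), Meox1 (-1.74), Fzd6 (-0.94) and Prickle1 (-0.93), and Cpm was higher (2.22, adjusted p = 0.000155). The 8 other lists, the node and notochord markers among them, had no call. The part of these cells in the lower values of Adcy8, Bicc1 and 4930533K18Rik was not tested.

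The P-CNH is the tail bud mesenchyme behind the hinge, which feeds the presomitic mesoderm. It was the low side of the choice on each day, so its values entered it, which the test does not take into account. The course of the P-CNH in time was not used. The comparison asks whether the transcripts, where low, stay low between E9.5 and E11.5. Bicc1 was 9.49 and 9.81 at E11.5 against 9.07 and 8.06 at E9.5, Cpn1 10.64 and 10.49 against 8.13 and 7.96, and 4930533K18Rik 8.90 and 8.62 against 7.42 and 7.14. The ages did not overlap for these genes. Of the 9, 3 were called, all higher, beside 3.52% of all genes. Cpn1 rose by 2.27 (SE 0.33, 4.84-fold, adjusted p = 0.000218), Bicc1 by 1.55 (SE 0.20, 2.92-fold, adjusted p = 5.22e-05) and 4930533K18Rik by 1.504 (SE 0.30, 2.84-fold, adjusted p = 0.00479). Within batch 3 the differences were 2.61, 1.59 and 1.62, and the second probes of Cpn1 (1.73, adjusted p = 0.0201) and Bicc1 (1.36, adjusted p = 0.0339) were called as well. Adcy8 and 2310045A20Rik were detected at neither age, and Aplnr differed by -1.25 and did not pass (adjusted p = 0.0721). Aplnr was called lower with cyclic loess, with BeadChips as a random term and without the 2 arrays with the fewest detected probes. Over the 36 fits that left out 1 array its difference ran from -1.66 to -0.84. The median of the 9 was 0.83, against 0.00 for all genes, and 0.62 over the 7 detected at some age with undetected groups at their bound. The call of 4930533K18Rik was lost without E11.5 P-CNH replicate 1 or E9.5 P-CNH replicate 2 (1.36 and 1.35), and that of Bicc1 without a batch term (1.09). With array weights 0 of 9 were called, beside 0.388% of all genes, and a fit of batch 3 alone, where the E9.5 P-CNH has 1 array, called no gene at all (0%) and so tells nothing of the 9.

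Markers of other tissues were also higher in the E11.5 P-CNH than at E9.5. Surface ectoderm markers were higher for 3 of 5, Krt14 (at least 4.25-fold, adjusted p = 0.0103), Trp63 (at least 3.23-fold, adjusted p = 0.000537) and Cldn4 (2.95, adjusted p = 0.0097), with sums of 2282 and 1266 against 662 and 279, Cldn4 brightest and Krt15 not detected. Endothelial markers were higher for 4 of 8, such as Esam (at least 4.12-fold) and Cldn5 (at least 3.16-fold), with sums of 1139 and 754 against 287 and 285. Gut endoderm markers were higher for 3 of 8, Cldn6 (2.92) and Cdh1 (2.29) among them, and lower for Trh, with sums of 7465 and 5494 against 2029 and 967. Blood genes were higher for 2 of 6, Hbb-y (2.36) and Alas2 (at least 2.76-fold), with sums of 10937 and 36957 against 7499 and 4144. Of the node and notochord markers 2 of 14 were higher, Sox9 (1.58, adjusted p = 0.0036) and Timp3 (1.20, adjusted p = 0.0186). Noto, Foxa1, Shh and Lmx1a were not called but were detected on at least 1 array at E11.5 and on none at E9.5. The sums of the node list, in which T was brightest at both ages, were 10499 and 23309 against 20746 and 14352. Olig3 and the somite genes Meox1 (1.84) and Tcf15 (1.38) were higher, and the remaining 9 lists had no call. The part of these tissues in the rise of Cpn1, Bicc1 and 4930533K18Rik was not tested.

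**Figure D4:**
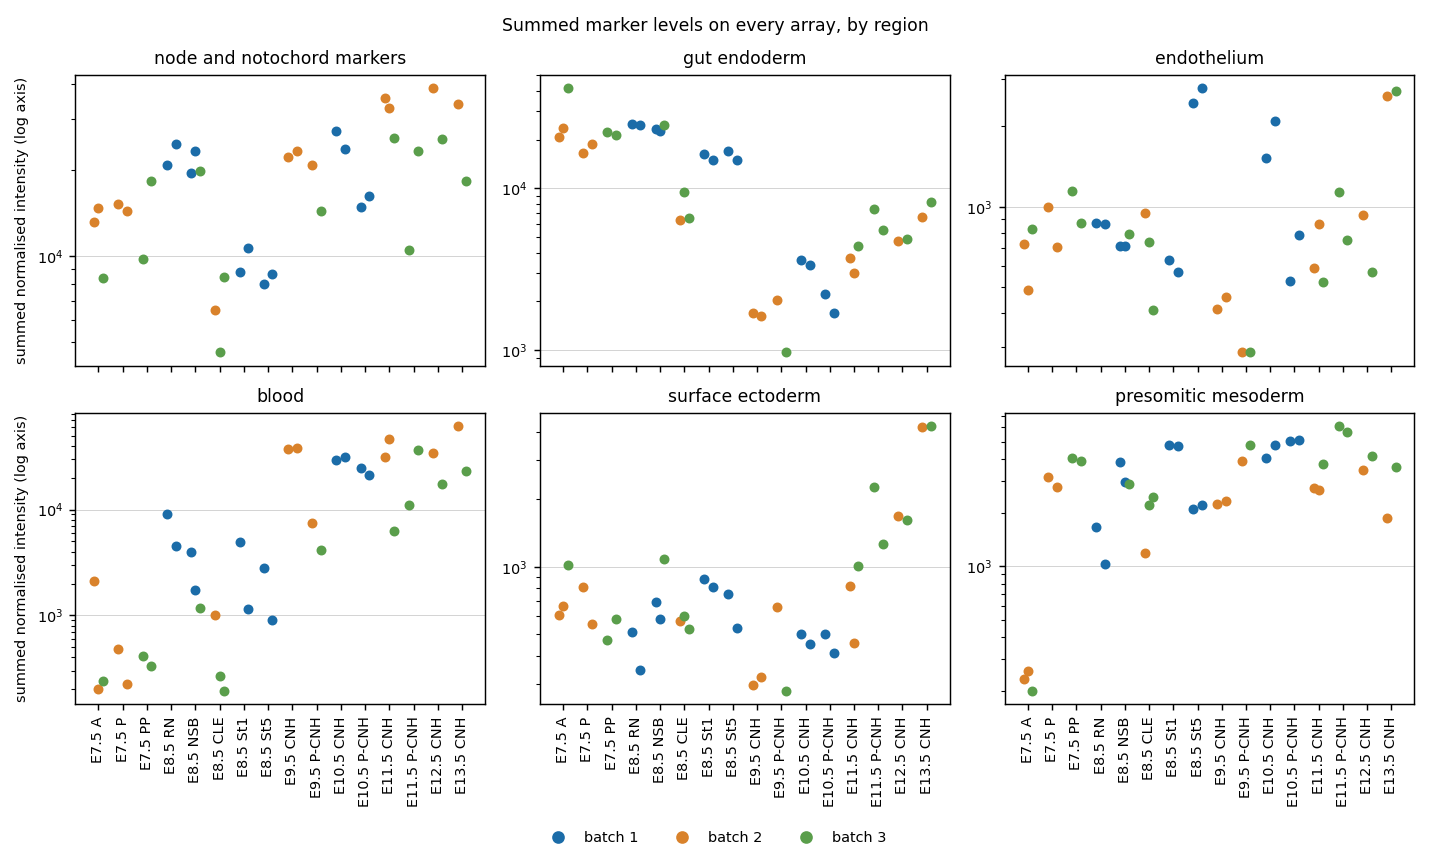
Summed normalised intensity (log axis) of 6 marker lists on each of 36 arrays, by region, for node and notochord, gut endoderm, endothelium, blood, surface ectoderm and presomitic mesoderm. Endothelium stands at 2439 and 2789 in St5 and 2605 and 2718 in the E13.5 CNH, against 415 and 460 in the E9.5 CNH.

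Over the 8 tested comparisons 19 of 72 differences were called, or 26.4%, beside 6.13% of the tests of all genes. The 9 were picked because they differ between regions of this series, and 6 of the 8 comparisons contain such regions. The larger share is therefore in part built in and is no result about the 9. The comparisons also share regions, and Bicc1 and 4930533K18Rik followed each other at r = 0.98, so the 72 are not independent. Of the 9 transcripts, 7 were called at least once. Bicc1 was called in 6 comparisons, 4930533K18Rik in 4, Aplnr in 3, Cpn1 and 6330505N24Rik in 2 each, and Adcy8 and 2310045A20Rik in 1 each, while Cobl and Cthrc1 were called in none. With the batch term, Bicc1 had the smallest residual SD of the 9 (0.15) and Cthrc1 the largest (0.82), so that a difference of a given size passed more readily for Bicc1. A transcript called in one comparison and not in another is not shown to differ between them, as no difference of differences was tested.

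**Figure D5:**
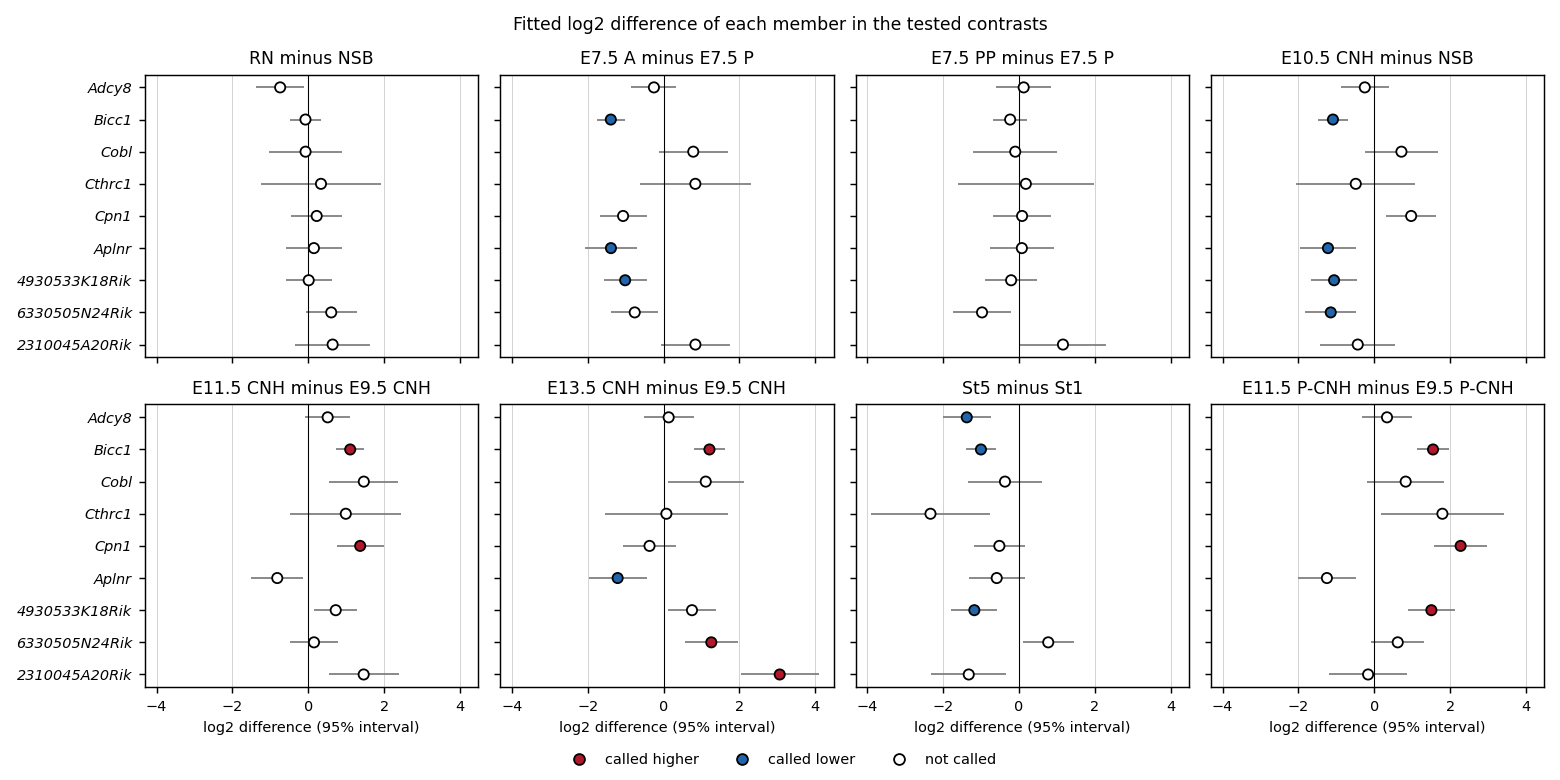
Log2 difference with its 95% interval for the 9 transcripts in the 8 tested comparisons, 1 panel each, with filled red points for called higher, filled blue for called lower and open points for not called. Bicc1 is called in 6 of the 8 panels, from -1.39 in A against P to 1.55 in the P-CNH.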

How the data were processed

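Amplified RNA of pooled embryo pieces was hybridised to 36 Illumina MouseWG-6 v2.0 arrays, which cover 16 regions. The authors deposited the mean bead intensity of 45281 probes per array, on a linear scale without background correction or normalisation, with a detection p-value per probe. The scanner software is not stated.

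From the deposited intensity, limma 3.58.1 (neqc) in R 4.3.3 corrected background by normexp with an offset of 16, with controls inferred from the detection p-values, and quantile-normalised. Tests covered the 21712 probes whose detection p-value fell under 0.01 on some array, in 1 fit with region and 3 batches as terms and 18 residual degrees of freedom. This replaced the variance stabilisation, spline normalisation and ComBat of the study. Calls needed a two-sided Benjamini-Hochberg adjusted p of at most 0.05 over all tested probes of the comparison and a fold of at least 1.5. A fitted difference holds the batch term, so it can depart from the difference of the printed means. Percentages of genes called count 1 probe, the brightest, of each of 15483 genes. A summed level adds the linear normalised intensity of a list's brightest probes.

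The 9 transcripts and the 16 gene lists (node and notochord, floor plate, neural tube, gut endoderm, visceral endoderm, endothelium, blood, surface ectoderm, presomitic mesoderm, somite, adenylyl cyclases, Bicc1 partners and node cilium, planar cell polarity, cordon-bleu relatives, carboxypeptidase N family, apelin signalling) were chosen with earlier results of these data known. Named are all 9, up to 3 called genes per list and comparison with the largest difference, and the genes most like the 9. Alternatives changed background correction, offset, normalisation, batch handling, probe filter, replicate block, array weights and arrays used, each array being left out in turn. Python 3.11.15, numpy 2.4.6, pandas 2.3.3 and matplotlib 3.10.9 drew the figures.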

Additional observations from a re-analysis of the deposited data

How the results depend on the processing

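The 19 called differences kept their direction in 228 of 228 refits under other settings and in 684 of 684 fits without 1 array. Their call was kept in 200 and 627 of these. Most of the 684 fits left out an array of neither compared group, so these counts say little of the compared arrays. In the E10.5 CNH against NSB, for example, leaving out either CNH array, or NSB replicate 1 or 2, left 1 of 4 calls. In all fits that left out 1 array, calls were kept by 7 of the 19: 2310045A20Rik from E9.5 to E13.5, Cpn1 in the P-CNH, and Bicc1 in its comparisons other than St5 against St1. The 53 differences that were not called changed sign 24 and 32 times. Where a value changed, the cause was not tested.

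Over the other settings, counts of called transcripts ran from 0 to 2 in RN against NSB, 2 to 4 in A against P, 3 to 6 in the E10.5 CNH against NSB, 0 to 6 from E9.5 to E11.5, 1 to 6 from E9.5 to E13.5, 2 to 7 in St5 against St1 and 0 to 4 in the P-CNH, and were 0 throughout in PP against P. In A against P, an offset of 100, cyclic loess, array weights or removal of the batch effect beforehand gave 4 (Cpn1 added), and no detection filter or batch 2 alone gave 2. In RN against NSB, array weights gave 2 and batch 1 alone 2. In the E10.5 CNH against NSB, both gave 6 (Cpn1 and Cobl added, as higher), and no batch term or no detection filter gave 3. In the CNH from E9.5 to E11.5, no batch term gave 1, removal of the batch effect beforehand 4 (Cobl and 2310045A20Rik added), the BeadChip as a random block (consensus correlation 0.483) 0 and array weights 6. In the CNH from E9.5 to E13.5, the BeadChip block gave 1, array weights 1, and no background correction or an offset of 100 gave 6 (Cobl and 4930533K18Rik added), and batch 2 alone gave 3 (Cobl added, Aplnr and 6330505N24Rik lost). In St5 against St1, array weights gave 7 and batch 1 alone 7. In the P-CNH, array weights gave 0 and batch 3 alone 0, where 1 group has a single array and no gene was called. Without the batch term Bicc1 also lost its call in the E10.5 CNH against NSB, the CNH from E9.5 to E13.5, St5 against St1 and the P-CNH.

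A replicate block beside region and batch gave counts of 0, 3, 0, 5, 2, 3, 3 and 3 in the order RN and NSB, A and P, PP and P, E10.5 CNH and NSB, E11.5 and E9.5 CNH, E13.5 and E9.5 CNH, St5 and St1, P-CNH. It ended the call of Aplnr from E9.5 to E13.5. The labels do not say that replicate numbers pair samples, though in batch 1 the number is that of the BeadChip. Between same-numbered arrays, r of the deviations from the group means ran from -0.34 to 0.25 over 16 pairs of arrays in 8 comparisons, and from -0.30 to 0.55 after batch correction.

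Signs changed mostly in PP against P, which share no batch. There Cobl was 0.12 with the background left in, 0.17 at a normexp offset of 100, 0.33 with the batch effect removed beforehand, 0.031 with the replicate block, 0.14 with array weights and 0.081 without the 2 arrays with the fewest detected probes (E13.5 CNH replicate 2 and CLE replicate 1, an alternative chosen after seeing the data). Cthrc1 was -0.0010 with cyclic loess, -1.57 with no batch term, -0.92 with the BeadChip block, -0.17 with array weights and -0.10 without those 2 arrays. 4930533K18Rik was 0.086 with cyclic loess and 0.0055 with the replicate block, where Adcy8 was -0.056 and Cpn1 -0.35. In RN against NSB, Bicc1 was 0.035 with no batch term, and with the batch effect removed beforehand Aplnr was -0.13 and 4930533K18Rik -0.15. From E9.5 to E13.5, Cthrc1 was -0.81 with no batch term and -0.10 with array weights, and Adcy8 -0.37 both in batch 2 alone and without those 2 arrays. From E9.5 to E11.5, 6330505N24Rik was -0.018 with the BeadChip block, and 2310045A20Rik in the P-CNH was 0.012 with array weights.

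With 1 array left out, called counts ran from 1 to 4 in A against P (1 without A replicate 1 or 2), 1 to 5 in the E10.5 CNH against NSB (1 without NSB replicate 1 or 2 or either CNH array), 1 to 4 from E9.5 to E11.5 (1 without either E9.5 CNH array, 4 without A replicate 3), 2 to 6 from E9.5 to E13.5 (2 without either E9.5 CNH array), 0 to 4 in St5 against St1 (0 without St1 replicate 1 or St5 replicate 2) and 2 to 4 in the P-CNH. Signs changed for 14 differences, none of them called. In RN against NSB, Bicc1 ran from -0.22 to 0.072, 4930533K18Rik from -0.0100 to 0.032 and Cobl from -0.22 to 0.080. In PP against P, Aplnr ran from -0.24 to 0.39, Cthrc1 from -0.27 to 0.63, Cpn1 from -0.41 to 0.57, 4930533K18Rik from -0.72 to 0.30, Adcy8 from -0.090 to 0.34 and Cobl from -0.37 to 0.24. From E9.5 to E13.5, Cthrc1 ran from -1.36 to 1.15, Cpn1 from -0.66 to 0.015 and Adcy8 from -0.37 to 0.80. 2310045A20Rik ran from -0.999 to 0.12 in the E10.5 CNH against NSB and from -0.36 to 0.0078 in the P-CNH. A group left with 1 array is assumed to vary like the others.

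Cyclic loess moved the median of all genes from -0.05 to 0.14 between E9.5 and E13.5. The share of called genes that were higher went from 49.3% to 71.2% there, from 57.8% to 77.4% between E9.5 and E11.5 and from 51.6% to 69.6% in PP against P. Levels near background limit Adcy8 in CLE and Adcy8, Cobl, Cthrc1 and 2310045A20Rik in the P-CNH, where a fitted difference is not a measured fold. Also near background were 2310045A20Rik in the E9.5 CNH, 4930533K18Rik and Cobl in CLE (detected on 1 of 3 arrays) and Cthrc1 in St5 (1 of 2). The same held for Cobl in E7.5 P and PP (1 of 2 each). Adcy8 in St5 was 5.69 on replicate 2, where the lowest detected value was 5.62.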
